A study of Rattus norvegicus with 20 samples.

Results

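The transcripts of the replicative helicase and of its sliding clamp, the genes Mcm2, Mcm3, Mcm4, Mcm5, Mcm6, Mcm7 and Pcna, were followed in rat blood before and after a hepatotoxic oral dose of acetaminophen (APAP). Every probe set whose platform annotation gives exactly 1 gene symbol, equal to one of these names, was taken, which gave 7 probe sets for 7 genes, 1 for each gene, out of 31042 probe sets and 14217 genes with a probe set of 1 symbol on the array. The rats were male Wistar, an outbred strain, and no animal carried a transgene. Of 35 rats given 1200 mg/kg APAP after a fast of 12 h, the 5 with the lowest serum alanine aminotransferase afterwards formed the resistant and the 5 with the highest the susceptible sub-group, so that the sub-groups were named by an outcome that followed the predose blood. Blood of the resistant sub-group before (R) and 24 h after the dose (RA), and of the susceptible sub-group before (S) and after (SA), was hybridized to 20 Affymetrix Rat Genome 230 2.0 arrays, with 5 arrays in each group.

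All 4 groups shared the lysis of red cells before RNA extraction. How much red cell RNA remained was not measured, and 8 erythroid markers still summed to a signal of 483010 to 938666 on these arrays. The predose sample was taken 1 week before dosing, and no array held blood of rats given vehicle. The labels give the retro-orbital plexus as the site of both bleeds, whereas the methods give the inferior vena cava for the postdose bleed. APAP, the fast, the day and possibly the site of bleeding therefore cannot be told apart in any comparison of postdose with predose arrays. The arrays came from 10 rats, but the labels do not tie replicate numbers to rats, and predose and postdose arrays were compared as separate samples. Levels below are log2 signals after each array was brought to a median of 1000, which is a log2 signal of 9.97, and a difference of 1 on this scale is a change by a factor of 2.

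The 6 MCM proteins form a ring that is loaded around DNA at replication origins in G1 phase and becomes the motor of the replication fork in S phase. PCNA is a ring of identical subunits that is loaded behind the helicase, holds DNA polymerase delta on its template and recruits ligase, flap endonuclease and repair enzymes. All of these genes are classical targets of the E2F transcription factors and are high in cycling cells, while most circulating leukocytes are resting, and MCM proteins also remain in cells that have recently left the cycle.

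Promoter sequences were read for these genes because E2F sites are the element that the family is known to share. RefSeq (build GRCr8) gave a window from 250 bases before to 50 bases after the start of 1 transcript for 6 of the 7 genes, all except Mcm4. An E2F site was searched for as TTTCCCGC, TTTGGCGC, TTTCGCGC or TTTGCCGC on both strands. It was found in 5 of the 6 windows, those of Mcm2, Mcm3, Mcm5, Mcm6 and Mcm7, whereas 2.14% of all 33469 windows hold one. The Pcna window held none of these words, which says only that these letters are not in it. The paired matches of Mcm2 and Mcm6, and the upstream pair of Mcm5, are overlapping matches on opposite strands. The CCAAT box (CCAAT, both strands) stood in 5 of the 6 windows and in 37.49% of all windows, the GC box (GGGCGG, both strands) in 5 of the 6 and in 33.06%, and the CHR element (TTTGAA, both strands) in 1 of the 6, that of Mcm2, and in 18.35%. The sequences of 4 windows, each up to 30 bases past the start, are shown with E2F words in capitals. They are those of the gene with the lowest fitted change (Mcm5, chr19:13488563-13488842, plus strand), of the gene that fell in both sub-groups (Mcm7, chr12:22163149-22163428, minus strand), of the gene that did not pass the test (Mcm3, chr9:30733717-30733996, minus strand) and of the clamp, without a match (Pcna, chr3:139955791-139956070, minus strand).
Mcm5: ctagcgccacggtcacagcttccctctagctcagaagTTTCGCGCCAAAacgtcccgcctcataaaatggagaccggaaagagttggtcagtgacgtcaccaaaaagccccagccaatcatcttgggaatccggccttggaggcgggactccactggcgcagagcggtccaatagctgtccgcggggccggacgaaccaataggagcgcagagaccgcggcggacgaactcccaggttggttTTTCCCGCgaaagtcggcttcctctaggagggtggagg
Mcm7: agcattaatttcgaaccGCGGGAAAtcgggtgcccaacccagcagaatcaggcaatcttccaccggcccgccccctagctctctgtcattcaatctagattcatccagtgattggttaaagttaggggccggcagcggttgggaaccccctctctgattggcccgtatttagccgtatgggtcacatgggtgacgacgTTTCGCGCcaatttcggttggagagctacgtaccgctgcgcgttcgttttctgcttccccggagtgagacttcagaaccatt
Mcm3: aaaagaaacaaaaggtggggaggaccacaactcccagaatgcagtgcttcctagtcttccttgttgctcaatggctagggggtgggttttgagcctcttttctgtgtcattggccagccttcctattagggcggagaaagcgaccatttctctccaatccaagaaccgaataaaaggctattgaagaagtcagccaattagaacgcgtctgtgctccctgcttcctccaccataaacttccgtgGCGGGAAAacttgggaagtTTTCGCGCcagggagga
Pcna: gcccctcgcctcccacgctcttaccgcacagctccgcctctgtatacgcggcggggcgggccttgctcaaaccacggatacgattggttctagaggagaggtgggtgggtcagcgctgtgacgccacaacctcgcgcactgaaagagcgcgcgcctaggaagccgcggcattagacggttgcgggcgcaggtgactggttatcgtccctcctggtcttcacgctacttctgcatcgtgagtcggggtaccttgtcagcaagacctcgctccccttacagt
The word in the Mcm3 window at -6 (first base, counted from the start site) is on the opposite strand and the one at 13 on the sense strand. In Mcm7 the matches begin at -233 and -52, and in Mcm5 at -213, -209 and -8. A match is a description of letters and not evidence of binding.

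All 7 probe sets passed the filter on low signals and lay far above the negative controls. The bacterial trp control probe sets reached a log2 signal of at most 8.12, whereas the lowest of all 140 member values was 10.85 (Mcm5 on RA replicate 2). The mean log2 signal of Mcm5 exceeded that of 66.8% of the probe sets tested and that of Pcna exceeded 97.7%. Probe sets differ in how well they hybridize, so the genes are compared below only with themselves.

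At 24 h after APAP, 6 of the 7 transcripts were lower than before it when the changes of both sub-groups were averaged. Mcm7 fell by 0.46 (SE 0.07, limma adjusted p = 3.32e-04), Mcm5 by 0.51 (SE 0.13, adjusted p = 0.0117), Mcm2 by 0.37 (SE 0.09, adjusted p = 0.0106) and Pcna by 0.36 (SE 0.09, adjusted p = 0.00961) on the log2 scale. Mcm4 fell by 0.30 (SE 0.07, adjusted p = 0.00471) and Mcm6 by 0.32 (SE 0.10, adjusted p = 0.0424), whereas the change of Mcm3 was -0.15 (SE 0.10, 95% interval -0.36 to 0.06, adjusted p = 0.399). These are moderate changes, to between 0.702 (Mcm5) and 0.811 (Mcm4) times the predose signal among the 6 that passed. Over all 30747 probe sets tested, 6% passed the same threshold in the lower direction, and the median change was 0.01 against -0.36 for the 7 genes. In whole blood, fewer cells of a type and less RNA per cell cannot be told apart. Mcm6 lay close to the threshold, and its call was lost without any 1 of 13 of the 20 arrays, with changes of -0.27 to -0.36 over all 20.

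**Figure D1:**
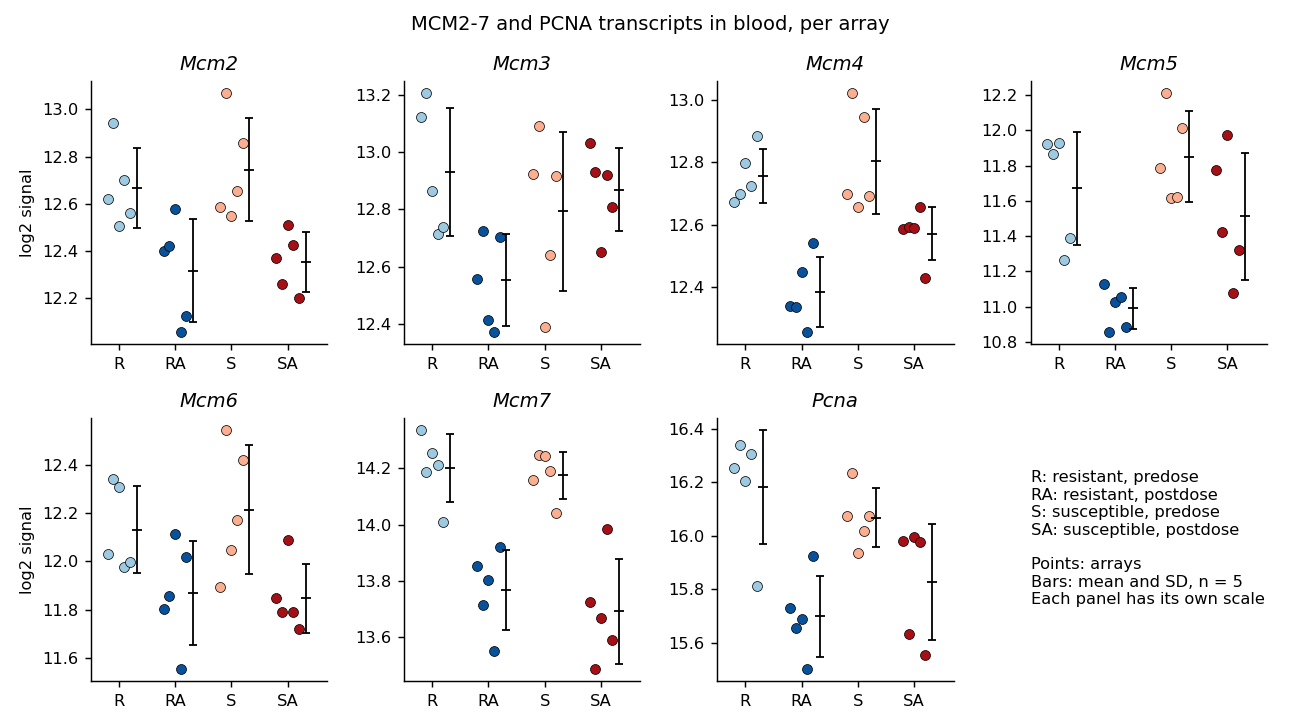
Log2 signal (vertical axis, its own scale in each panel) of each gene on each of the 20 arrays, by group (horizontal axis); points are arrays, bars the mean and SD of 5 arrays. The RA points of Mcm4, Mcm5 and Mcm7 lie wholly below the R points, the SA points of Mcm2 and Mcm7 wholly below the S points, and Mcm3 on SA arrays overlaps S throughout.

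Mcm7, a subunit of the catalytic core of the helicase, fell in each sub-group. Its log2 signal was 14.34, 14.19, 14.25, 14.21 and 14.01 on R replicates 1 to 5, and 13.85, 13.71, 13.80, 13.55 and 13.92 on RA. On S arrays it was 14.16, 14.25, 14.24, 14.19 and 14.04, and on SA 13.73, 13.49, 13.67, 13.99 and 13.59. All 10 predose values thus lay above all 10 postdose values, though narrowly. The lowest predose one was 14.01 on R replicate 5 and the highest postdose one 13.99 on SA replicate 4. The share of all probe sets apart in this way was not measured. The fall was 0.43 in resistant rats (SE 0.10, limma adjusted p = 0.0194) and 0.49 in susceptible rats (SE 0.10, adjusted p = 0.00756).

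Mcm5, a ring neighbour of Mcm2 at the gate through which DNA enters, had the lowest fitted change in resistant rats. On R arrays its log2 signal was 11.92, 11.87, 11.93, 11.26 and 11.39, and on RA arrays 11.13, 10.85, 11.03, 11.06 and 10.88. The 5 RA values lay close together and below every R value, while the R values split into 3 high and 2 lower ones. The fall was 0.68 (SE 0.18, limma adjusted p = 0.0334), to 0.623 times the predose signal. On S arrays it was 11.79, 12.21, 11.62, 11.62 and 12.01, and on SA 11.77, 11.42, 11.97, 11.07 and 11.32. These groups overlapped, with 3 of the 5 SA values below all S values, and the change of -0.34 (SE 0.18, 95% interval -0.72 to 0.04) did not pass the test (adjusted p = 0.330).

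Mcm4, also a subunit of the catalytic core, stood at 12.67, 12.70, 12.80, 12.72 and 12.89 on R arrays and at 12.34, 12.34, 12.45, 12.26 and 12.54 on RA arrays. The ranges were apart, and the fall of 0.37 passed the test (SE 0.09, limma adjusted p = 0.0261). In susceptible rats the levels were 12.70, 13.02, 12.66, 12.95 and 12.69 before and 12.59, 12.59, 12.59, 12.66 and 12.43 after dosing. Here 4 of the 5 SA values lay below all S values, and the change was -0.23 (SE 0.09, adjusted p = 0.169).

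Pcna, the clamp, had a log2 signal of 16.25, 16.34, 16.20, 16.31 and 15.81 on R arrays and of 15.73, 15.66, 15.69, 15.50 and 15.92 on RA arrays. R replicate 5 stood apart below the other R arrays, and it alone fell within the RA range. The fall in resistant rats was 0.48 (SE 0.12, limma adjusted p = 0.0288). In susceptible rats the S arrays read 16.08, 16.24, 15.93, 16.02 and 16.07 and the SA arrays 15.98, 15.63, 16.00, 15.98 and 15.55. The SA values split, with replicates 2 and 5 low and the other 3 at the level of the lower S arrays, and the change was -0.24 (SE 0.12, adjusted p = 0.313). This value depended on the scaling and was -0.39 (adjusted p = 0.00667) with quantile normalization.

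Mcm2, the other gate subunit and a histone binder, ranged from 12.50 to 12.94 on R (median 12.62) and from 12.06 to 12.58 on RA arrays (median 12.40). It ranged from 12.55 to 13.07 on S (median 12.65) and from 12.20 to 12.51 on SA arrays (median 12.37), so that only in susceptible rats the 2 sets of arrays did not overlap. The changes were -0.35 in resistant (SE 0.13, limma adjusted p = 0.143) and -0.39 in susceptible rats (SE 0.13, adjusted p = 0.0823), and neither passed on its own. Mcm6, the third catalytic subunit named here, had medians of 12.03 on R, 11.86 on RA, 12.17 on S and 11.79 on SA arrays, with overlapping ranges in each sub-group. Its changes were -0.26 (SE 0.14, adjusted p = 0.357) and -0.37 (SE 0.14, adjusted p = 0.136).

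Mcm3, the ring subunit next to Mcm5, was the gene that did not pass. Its log2 signal on R arrays was 13.12, 13.21, 12.86, 12.71 and 12.74, and on RA arrays 12.56, 12.72, 12.41, 12.37 and 12.70. All 5 RA values lay below the R mean and 4 of 5 below every R array, with a change of -0.38 (SE 0.14, limma adjusted p = 0.149). On S arrays it was 12.92, 13.09, 12.39, 12.64 and 12.92, and on SA arrays 13.03, 12.93, 12.65, 12.92 and 12.81. The 4 other S values lay between 12.64 and 13.09, no SA value lay below the lowest S array, and the change was 0.08 (SE 0.14, adjusted p = 0.837). Without S replicate 3, the lowest, this change was -0.03.

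Counted by sub-group, 4 of the 7 genes fell in resistant rats (Mcm4, Mcm5, Mcm7 and Pcna), where 2.6% of all probe sets passed in that direction. At an unadjusted p under 0.05, 6 of the 7 were lower, against 8.77% of all probe sets. The median change was -0.38, against -0.01 over all probe sets. In susceptible rats 1 of the 7 fell (Mcm7), against 2.8% of all probe sets, and 4 were lower at an unadjusted p under 0.05, against 8.76%. The median change there was -0.34, against 0.01 over all probe sets. RA arrays lay wholly below R arrays for 3 of the 7 genes, and 3.53% of all probe sets did so. SA arrays lay wholly below S arrays for 2 of the 7, against 2.91% of all probe sets. The count of 4 rested on the full set of arrays: it was 0 without R replicate 3 or RA replicate 2, 1 without R replicate 1, RA replicate 1 or RA replicate 4, and 2 without R replicate 2, R replicate 4 or RA replicate 3. With a fit to only the 10 arrays compared, none of the 4 passed (limma adjusted p = 0.0548 to 0.0923), nor did Mcm7 in susceptible rats (adjusted p = 0.0627). The count of 1 in susceptible rats was 5 when arrays were scaled to a trimmed mean (all except Mcm3 and Mcm5) and 3 with quantile normalization (Mcm2, Mcm7 and Pcna). With trimmed-mean scaling, 58.5% of all calls in susceptible rats were in the lower direction, against 42% with the median.

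**Figure D2:**
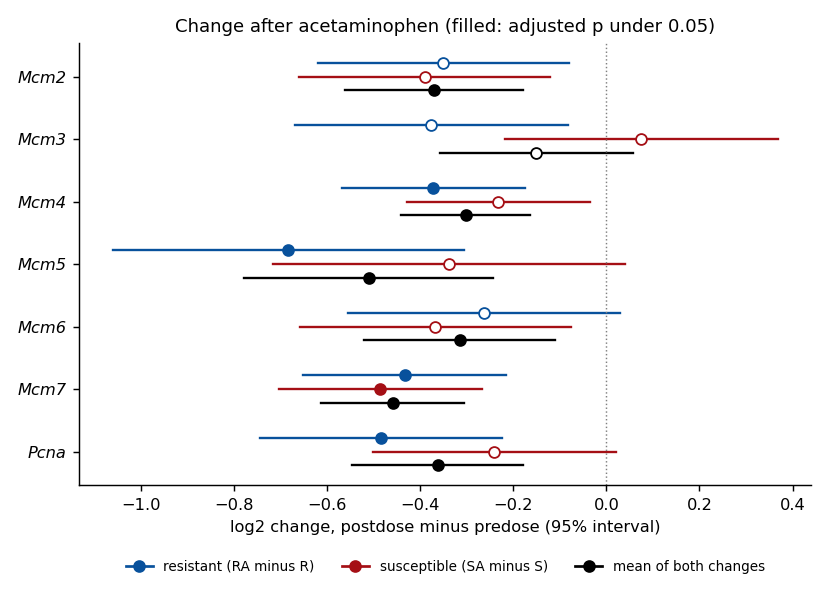
Log2 change from predose to postdose (horizontal axis) of each gene (vertical axis) in resistant rats, in susceptible rats and as the mean of both changes, with 95% intervals from the limma fit; filled points passed an adjusted p under 0.05. Of the 7 black intervals, that of Mcm3 alone includes 0, and its resistant (-0.38) and susceptible (0.08) points lie farther apart than those of any other gene.

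The difference between the changes of the sub-groups was tested directly. None of the 7 genes passed (lowest limma adjusted p = 0.683), nor did any probe set of the array (0%), and at an unadjusted p under 0.05 only Mcm3 differed, against 6.9% of all probe sets. The change of Mcm3 was higher by 0.45 in susceptible rats (SE 0.20, 95% interval 0.04 to 0.87, adjusted p = 0.683). For Mcm5 the difference was 0.34 (95% interval -0.19 to 0.88) and for Pcna 0.24 (95% interval -0.12 to 0.61), and for Mcm7 it was -0.05 (95% interval -0.36 to 0.26). The larger count of calls in resistant rats is thus not shown to be a difference between the sub-groups.

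Before dosing, the sub-groups did not differ in any of these genes beyond the spread between arrays. With limma 0 of the 7 passed, as did 0.00329% of all probe sets, and 0 passed at an unadjusted p under 0.05, against 3.74% of all probe sets. By the methods' test with its fold change 0 of the 7 passed as well, against 1.22% of all probe sets. The differences, susceptible minus resistant, ran from -0.14 (Mcm3, 95% interval -0.51 to 0.23) to 0.18 (Mcm5, 95% interval -0.24 to 0.60). After dosing, 0 of the 7 passed against 0.143% of all probe sets, and 2 were higher in susceptible rats at an unadjusted p under 0.05, against 9.18% that differed in either direction. These were Mcm5, higher by 0.52 (SE 0.18, limma adjusted p = 0.324), and Mcm3, higher by 0.31 (SE 0.14, adjusted p = 0.495). Mcm6 and Mcm7 differed by -0.02 and -0.08. The postdose comparison shares its arrays with the changes described above.

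The wider replication machinery was read from 7 lists of genes by role, in which 70 of 78 genes had a probe set with 1 symbol. In the mean change 9 of these 70 fell and 3 rose, with a median of -0.17 against 0.01 over all probe sets, and the rest did not pass the test. Of all probe sets tested, 6% passed in the lower and 6.28% in the higher direction, and the counts of single lists given next rest on few genes. Among the genes of origin recognition and of helicase loading and its control, 2 of 8 fell. Orc6, a subunit of the origin recognition complex, fell by 0.64 (SE 0.13, limma adjusted p = 0.00221), and 2 further probe sets of the gene fell too, the one by 0.76, while the other fell by 1.19. Gmnn, which encodes geminin, the inhibitor of MCM loading, fell by 0.66 (SE 0.13, adjusted p = 0.00149). None of 10 factors that activate or accompany the helicase passed, with changes of -0.89 to 0.25, nor did either of the MCM paralogues outside the ring.

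Of the loaders and clients of PCNA, 3 of 14 fell. Rfc3, a subunit of the clamp loader, went from 12.50 ± 0.25 on R to 11.74 ± 0.17 on RA, and from 12.23 ± 0.12 (S) to 11.51 ± 0.20 (SA) (mean log2 signal ± SD, n = 5), with a fall of 0.74 (limma adjusted p = 3.05e-05). It passed in each sub-group (adjusted p = 0.00192 in resistant rats, 0.00261 in susceptible rats). So did the polymerase subunit Pold3, described below, and the Orc6 probe set that fell by 1.19. Fen1, the flap endonuclease of Okazaki fragments, fell by 0.50 (adjusted p = 0.00400) and Lig1, the ligase that joins them, by 0.39 (adjusted p = 0.0168). A further probe set of the clamp loader subunit Rfc1 fell by 0.41 (adjusted p = 0.0180), while its probe set of higher signal did not pass. Atad5, the PCNA unloader, was lower by 0.61 in resistant rats (adjusted p = 0.0424) with a mean change of -0.24 (adjusted p = 0.227).

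Among polymerases, primase and the single-strand binding protein RPA, 2 of 14 fell, and both were subunits of DNA polymerase delta, the polymerase that PCNA holds. Pold3 fell by 0.79 (limma adjusted p = 1.51e-04) and the catalytic subunit Pold1 by 0.52 (adjusted p = 0.00858). The delta subunits Pold2 (-0.23, adjusted p = 0.0708) and Pold4 (-0.16, adjusted p = 0.180) did not pass. In deoxynucleotide supply 1 of 4 fell, Rrm1, the large subunit of ribonucleotide reductase, by 0.51 (adjusted p = 0.00734). A probe set of the dUTP hydrolase Dut fell by 0.64 (adjusted p = 0.0110), while its brightest probe set did not pass. Of 18 regulators of entry into S phase 1 fell, a share near that of all probe sets (6%), and 3 rose, against 6.28% of all probe sets. Cdc25a, the phosphatase that activates CDK2, fell by 0.46 (adjusted p = 0.0106), whereas E2f2, an activating E2F, rose by 0.63 (adjusted p = 0.0100), and the D-type cyclins Ccnd2 and Ccnd3 rose by 0.40 (adjusted p = 0.00706) and 0.28 (adjusted p = 0.0318). The call of Ccnd3 was lost without any 1 of 10 arrays, with changes of 0.24 to 0.32 over all 20. A second probe set of the CDK inhibitor Cdkn1a fell by 1.03 in resistant rats (adjusted p = 0.0288), with 0.28 in susceptible rats (adjusted p = 0.636). The brightest probe set of Cdkn1a had a change of -0.57 in resistant rats and did not pass (adjusted p = 0.178).

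By sub-group, 6 of the 70 genes fell and 0 rose in resistant rats, where 2.6% of all probe sets passed in the lower and 2.51% in the higher direction. In susceptible rats 4 fell and 2 rose, against 2.8% and 3.86% of all probe sets. The 6 became 3 without R replicate 3, R replicate 4, RA replicate 2 or RA replicate 4, and the 4 became 2 without S replicate 2, SA replicate 1 or SA replicate 2. None of the 70 differed between the sub-groups before or after dosing by limma. Of 15 mitosis markers none passed in the mean change, against 6% of all probe sets in the lower and 6.28% in the higher direction. Their median was -0.27, against -0.17 for the 70 genes, and a count in so short a list rests on few genes. Mki67, the proliferation antigen, had a change of 0.03 (SE 0.19, adjusted p = 0.951), and Top2a one of -1.39 (SE 0.65, adjusted p = 0.202) from a low signal. The value of Mki67 averages changes of opposite sign, -0.28 in resistant and 0.35 in susceptible rats. Neither passed (limma adjusted p = 0.680 and 0.553).

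**Figure D3:**
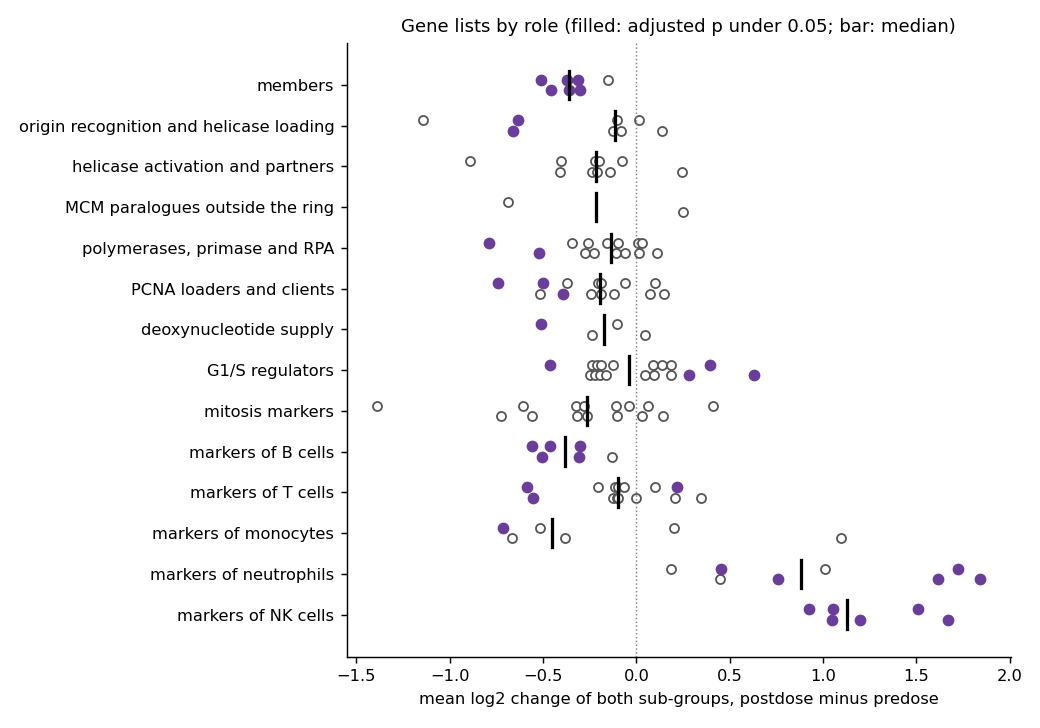
Mean log2 change of both sub-groups (horizontal axis) for each gene of the replication lists, the mitosis markers and markers of blood cells (vertical axis), 1 point per gene, filled where the limma adjusted p was under 0.05, with the list's median as a bar. The members have a median of -0.36, the markers of B cells one of -0.38 and those of monocytes one of -0.45, while those of neutrophils (0.88) and NK cells (1.13) lie to the right.

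Markers of some blood cell types moved between the same arrays. In the mean change 6% of all probe sets passed in the lower and 6.28% in the higher direction. Of 6 B cell markers on the array 5 fell in the mean change (median -0.38). Their summed signal was 122662 to 178775 on R, 100534 to 129737 on RA, 114518 to 151432 on S arrays and 89605 to 117069 on SA, with no marker at the level of the negative controls. All 6 NK cell markers rose (median 1.13), with sums of 151150 to 255655 on R, 325164 to 465052 on RA, 158084 to 214648 on S arrays and 262808 to 422001 on SA. Of 8 neutrophil markers 5 rose (median 0.88), with sums of 518469 to 725006 on R, 850520 to 1065001 on RA, 506481 to 683519 on S arrays and 915110 to 1440488 on SA. Neutrophil and NK cell sums thus did not overlap between predose and postdose arrays in either sub-group, whereas B cell sums overlapped in each. Prf1 had the brightest probe set of the 6 NK cell markers and weighs most in the NK cell sum. S100a9 and S100a8 had the brightest probe sets of the 8 neutrophil markers and weigh most in the neutrophil sum. The mean changes of Mmp8 (0.19), Mmp9 (0.45) and Cxcr1 (1.01) did not pass. Among 14 T cell markers 2 fell and 1 rose. Of 6 monocyte markers 1 fell, Csf1r by 0.71 (limma adjusted p = 0.00380), with a median of -0.45 for the list. Cd14 (-0.67), Cd68 (-0.52) and Cx3cr1 (-0.38) did not pass. Ccr2 (0.20) and Cd163 (1.10) went the other way and did not pass either. Monocyte sums were 71542 to 152589 on R, 49118 to 106968 on RA, 86482 to 148637 on S arrays and 56622 to 122765 on SA, and overlapped in each sub-group.

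Of 4 progenitor markers 1 fell, and this was Myb, a transcription factor of immature blood cells, which fell by 1.16 (limma adjusted p = 2.41e-05). The summed signal of these 4 was 9989 to 14900 on R against 6850 to 9782 on RA arrays, and 10220 to 13228 on S against 5012 to 8844 on SA arrays, with Kit at or below the negative controls on every array. Myb had the brightest probe set of the 4 and weighs most in this sum, and the mean changes of Gata2 (0.63), Flt3 (0.02) and Kit (-0.14) did not pass. Those of Flt3 and Kit average changes of opposite sign. Flt3 changed by 0.75 in resistant and by -0.72 in susceptible rats (limma adjusted p = 0.0951 and 0.0956). Kit changed by 0.58 and by -0.87 (adjusted p = 0.643 and 0.389). Of 8 erythroid markers 1 fell, and of 6 plasma cell markers 1 rose. Of all probe sets 6% passed in the lower and 6.28% in the higher direction, and single calls in such short lists rest on few genes. None of 6 platelet and of 5 hepatocyte markers passed in the mean change. In susceptible rats the albumin gene Alb rose by 3.17 (limma adjusted p = 0.0161). Ttr (adjusted p = 0.0978) and Serpina1 (adjusted p = 0.121) were higher there but did not pass. Fgb (-0.83) and Apoa1 (-0.19) went the other way and did not pass either. The hepatocyte sum was 2243 to 23409 on SA arrays, against 974 to 2422 on S arrays, so that these ranges overlapped. It was at most 2422 in the other groups. Granulocyte precursors were represented by Camp alone of 8 markers. For actin, the signal of the 3' control over that of the 5' control, which rises as RNA degrades, was in log2 0.80 ± 0.03 on R, 0.76 ± 0.10 on RA, 0.87 ± 0.05 on S and 0.79 ± 0.10 on SA arrays (SD, n = 5). The part of these shifts in the fall of the helicase genes was not tested.

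Within groups, the 7 transcripts mostly varied together over the 20 arrays. After each value was set against its group mean, Pearson's r was above 0 for 20 of the 21 gene pairs, with a median of 0.37. Pairs of other genes were not measured, so this likeness is not shown to be particular to the 7. The highest were Mcm7 with Pcna and Mcm2 with Mcm6, both at 0.70, and the lowest was Mcm5 with Mcm7 at -0.03. All points of a pair come from the same arrays and share their scaling, and with trimmed-mean scaling the median was 0.16, the range -0.35 to 0.63 and the number above 0 fell to 14. Some arrays were low or high for nearly all genes at once. SA replicate 5 lay below its group mean for 7 of 7, and R replicate 5, S replicate 3 and RA replicate 4 for 6 of 7, whereas S replicate 2 and SA replicate 1 lay below it for 0 of 7.

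**Figure D4:**
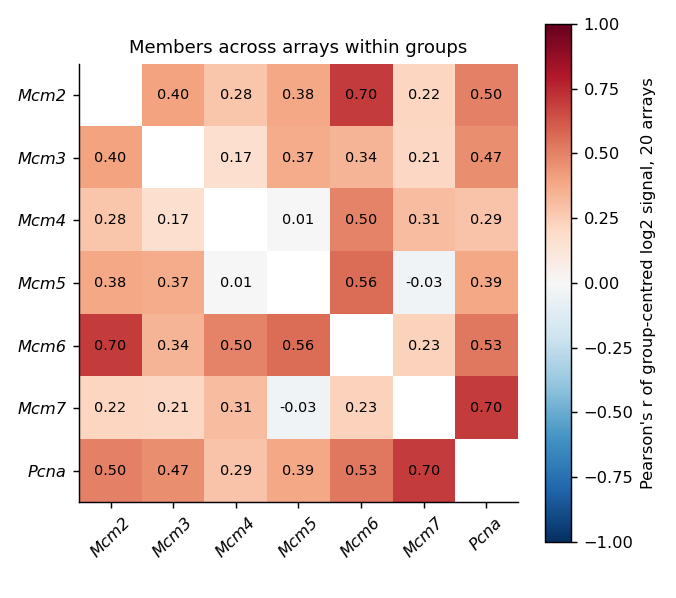
Pearson's r between each pair of genes (rows and columns) over 20 arrays, from log2 signals centred on the mean of each group; the colour scale runs from -1 to 1. The cells for Mcm7 with Pcna and Mcm2 with Mcm6 are darkest at 0.70, and Mcm5 with Mcm7 is at -0.03.

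The genes whose pattern within groups was most like the mean of the 7 were not on the replication lists. The group means had been taken out before the likeness was measured. By Pearson's r over 20 arrays, these genes were Chmp2a and Tpi1 (0.93), Pgam1, Rnf4, Eloc, Ndufa8 and Nubp2 (each 0.89), Capza2 and Susd3 (0.88) and Tex30 (0.87). The median r of all probe sets tested was 0.06, and their 95th percentile was 0.62. Chmp2a acts in membrane scission, Tpi1 and Pgam1 in glycolysis and Ndufa8 in respiratory complex I. Of these, Susd3 rose in the mean change, by 0.59 (limma adjusted p = 0.0106), and the other 9 did not pass. The list depended on the scaling, since with trimmed-mean scaling only Susd3 was again among the 10 most alike. The mean of the 7 genes on median-scaled arrays had an r of 0.71 with the log2 ratio of the trimmed mean to the median of an array, and its part in the likeness was not tested.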

How the data were processed

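Blood RNA of 20 rat samples was measured on 1 array each. The authors deposited 1 linear intensity per probe set and array, with array medians of 187 to 223. The methods describe ArrayTrack and a chip median of 1000, and the software behind the signals is not given in the sources used here. The intensities of 31042 probe sets, without 57 controls, were brought to a median of 1000 on every array and log2 transformed. Probe sets that stayed under 100 throughout a comparison were not tested, which left 30747 over 20 arrays and 30416 over the 10 predose arrays. The fit was made by limma (3.58.1; R 4.3.3) with lmFit and eBayes, all 4 groups sharing 1 spread except in the predose comparison, and p-values were adjusted by Benjamini-Hochberg over all probe sets tested (threshold 0.05).

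The members and the gene lists were chosen with earlier results of these data known. Listed genes were read at their brightest probe set. Named were the members, the replication probe sets past the threshold in a change, and the 10 genes most like the mean of the members. Mki67, Top2a and the individual cell type markers were named after their values were seen. Alternatives were quantile normalization, deposited values, trimmed-mean scaling, other filters, 1 probe set per gene, a replicate block, only the arrays compared, the methods' test (Welch, adjusted, or unadjusted with a fold change of 2), limma with trend and robust settings, and leaving out each array. For the other replication genes and the most alike genes they were chosen after seeing the data. Scripts were tested on simulated data, and figures drawn with matplotlib 3.10.9.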

Additional observations from a re-analysis of the deposited data

Results flagged for a closer look

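Among the 28 sets of 5 arrays given by 7 genes in 4 groups, 1 held an array far from the others. Pcna on R replicate 5 had a log2 signal of 15.81, below the other 4 R arrays at 16.20 to 16.34. By chance about 1 set in 20 is marked in this way. Without this array the fall of Pcna in resistant rats was 0.58.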

How the results depend on the processing

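Of the results with a test, the 6 falls in the mean change kept their direction under all alternatives run. Members past the threshold in resistant rats (4) numbered 0 with a replicate block, 0 with only the arrays compared, 2 with the methods' test after adjustment, 0 with the methods' test and fold change, and 0 to 3 with 1 array left out. In susceptible rats (1) they numbered 3 with quantile normalization, 5 with trimmed-mean scaling, 2 with trend and robust settings, and 0 with only the arrays compared and under both forms of the methods' test. In the mean change (6) they numbered 3 with the replicate block, where Pcna, Mcm6 and Mcm2 were lost, and 5 to 6 with 1 array left out. Other replication genes that fell in resistant rats (6) numbered 3 and 0 under the methods' test, adjusted and with fold change, and 3 to 8 with 1 array left out. In susceptible rats (4) they numbered 7 with trimmed-mean scaling, 1 with the replicate block, 2 with only the arrays compared, 1 and 0 under the methods' test, and 2 to 4 with 1 array left out. In the mean change (9) they numbered 15 with quantile normalization and 16 with trimmed-mean scaling. Calls of all probe sets in the lower direction rose too with these settings. In the mean change they went from 1846 to 2278 and 2435, and in susceptible rats from 861 to 1378 and 1620. The cause of these shifts was not tested.

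All probe sets past the threshold numbered 1570 in resistant rats (729 to 2097 over alternatives), 2048 in susceptible rats (578 to 2769), 3777 in the mean change (2230 to 4467), 1 before dosing (0 to 370), 44 after dosing (0 to 559) and 0 for the difference between the changes (0 to 20). The 370 and the 559 are from the methods' test and fold change, which is unadjusted. The highest adjusted counts among the alternatives were 1 before and 206 after dosing. The 2230 is the count with 1 probe set per gene, where fewer probe sets were tested. Differences that turned sign were all small and uncalled. With quantile normalization the predose difference of Mcm7 was 0.0042 and the postdose difference of Pcna -0.0108, and with trimmed-mean scaling the predose difference of Mcm7 was 0.0015 and the postdose difference of Mcm2 -0.0303. With 1 array left out, the change of Mcm3 in susceptible rats ran from -0.0252 to 0.1498, the predose differences of Mcm7 from -0.0718 to 0.0104, Mcm4 from -0.0076 to 0.0842 and Mcm2 from -0.0038 to 0.1465, the postdose differences of Mcm6 from -0.1006 to 0.0387 and Mcm2 from -0.028 to 0.1031, and the difference between the changes of Mcm2 from -0.1093 to 0.041.

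Same-numbered predose and postdose arrays had correlations of -0.03 to 0.05 in their deviations from the group means, above 0.1 for 0 of 10 pairs, and 4 of 10 arrays correlated best with their own number, so that the numbers were not taken as pairs. With trimmed-mean scaling the median change of all probe sets in susceptible rats was -0.06, against 0.01 with median scaling, and no scaling moved a median of all probe sets by more than 0.1. Ccnd3 lost its call under 1 alternative and without any 1 of 10 arrays.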
